A study of Homo sapiens with 4 samples.

Results

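The Krüppel-like factors described here are 10 genes, KLF2, KLF3, KLF4, KLF5, KLF6, KLF7, KLF9, KLF10, KLF11 and KLF13, taken by gene symbol from the 20323 gene rows of the count tables. Each symbol had a single row, and all 10 genes passed the filter on low counts. Their mRNA was sequenced from poly(A) libraries of HCT-8, a line of human colorectal cancer cells, in a form made resistant to the drug 5-fluorouracil. In 2 libraries the cells carried a plasmid that overexpresses METTL14, a subunit of the enzyme complex that writes N6-methyladenosine into mRNA, and in 2 they carried a negative control plasmid. The cells of both groups were also given cycloheximide, an inhibitor of translation elongation, at 100 ug/mL, and every value comes from cells under that block. The series reports the work as repeated independently, without saying which libraries belong together, and the labels do not say whether the resistant line is a clone.

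Krüppel-like factors are transcription factors with 3 zinc fingers at the C-terminal end that bind GC-rich and CACCC sequences, the same kind of site that the related SP factors use. They fall into groups by their partners. KLF3 recruits the corepressor CtBP, KLF2, KLF4, KLF5, KLF6 and KLF7 often act as activators, and KLF9, KLF10, KLF11 and KLF13 bind the corepressor SIN3A. In the intestine KLF5 is known from the dividing cells of the crypt and KLF4 from differentiated cells of the surface. Several family members are induced within minutes by growth factors, shear stress or TGF-beta, and their mRNAs are short-lived.

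Within 1 representative transcript per gene, the 246 coding bases that end at the last codon of KLF4 and hold its zinc fingers had an ungapped match in the same reading frame in each of the other genes. Identity over these bases ranged from 54.9 to 83.3% over the 45 pairs, with a median of 64.6%. KLF6 and KLF7 were the closest pair, and KLF2 and KLF4 came next at 78.0%. These 2 stretches are shown because KLF2 and KLF4 changed in opposite directions. Capitals mark the 54 bases at which they differ, 44 of them at the third position of a codon (GENCODE release 29, GRCh38, coding strand).
KLF2 zinc finger bases: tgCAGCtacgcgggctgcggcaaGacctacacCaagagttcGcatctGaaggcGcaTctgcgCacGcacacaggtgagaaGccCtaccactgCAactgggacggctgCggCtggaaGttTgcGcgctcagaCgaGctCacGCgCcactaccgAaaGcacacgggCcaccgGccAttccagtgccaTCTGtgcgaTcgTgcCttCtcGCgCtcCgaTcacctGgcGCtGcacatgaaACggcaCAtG
KLF4 zinc finger bases: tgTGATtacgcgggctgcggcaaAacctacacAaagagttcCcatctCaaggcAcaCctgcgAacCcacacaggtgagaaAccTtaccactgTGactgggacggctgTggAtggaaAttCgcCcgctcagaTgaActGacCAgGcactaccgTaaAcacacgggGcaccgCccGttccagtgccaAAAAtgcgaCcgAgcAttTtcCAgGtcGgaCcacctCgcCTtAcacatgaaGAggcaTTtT

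Such similarity did not extend to runs long enough to mix reads between members. Of all runs of 50 bases in the representative transcripts, none of KLF2, KLF4, KLF5, KLF6, KLF9, KLF10 or KLF13 occurred in a transcript of another GENCODE gene, on either strand. KLF7 shared 0.192% of its runs with the pseudogene KLF7P1, KLF3 shared 4.30% with KLF3-AS1 and KLF11 shared 9.22% with AC104794.4, both genes of the opposite strand. These 3 partner genes have no row in the tables. No source used here gives the strand setting of the counting, so reads of the 2 opposite-strand partners cannot be told apart from those of KLF3 and KLF11.

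Promoter windows of 250 bases before to 50 after a transcript start (RefSeq, GRCh38.p14) were at hand for 8 of the 10 genes, in 13 windows since some genes have several starts. Printed are those of KLF2, KLF13 and KLF4, the lower member and the 2 higher members with the smallest p-values. Capitals mark the GC box GGGCGG and the CACCC box, each on either strand and allowed to overlap, and in KLF2 also a MEF2 box that starts 120 bases before the start. The windows are chr19:16324576-16324875 (plus strand), chr15:31326585-31326884 (plus strand) and chr9:107489720-107490019 (minus strand).
KLF2 promoter: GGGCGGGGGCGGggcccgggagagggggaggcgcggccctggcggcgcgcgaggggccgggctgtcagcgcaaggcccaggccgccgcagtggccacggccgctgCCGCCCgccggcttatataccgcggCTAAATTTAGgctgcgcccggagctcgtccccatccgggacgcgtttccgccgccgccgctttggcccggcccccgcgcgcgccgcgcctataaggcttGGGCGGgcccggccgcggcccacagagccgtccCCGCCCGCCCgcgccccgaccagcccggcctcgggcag
KLF13 promoter: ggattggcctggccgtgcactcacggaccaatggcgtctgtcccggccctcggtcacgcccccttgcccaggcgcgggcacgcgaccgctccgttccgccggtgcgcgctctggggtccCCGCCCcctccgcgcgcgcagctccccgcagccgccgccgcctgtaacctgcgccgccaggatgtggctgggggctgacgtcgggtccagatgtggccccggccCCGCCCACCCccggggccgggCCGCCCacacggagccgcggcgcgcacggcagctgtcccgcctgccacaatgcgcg
KLF4 promoter: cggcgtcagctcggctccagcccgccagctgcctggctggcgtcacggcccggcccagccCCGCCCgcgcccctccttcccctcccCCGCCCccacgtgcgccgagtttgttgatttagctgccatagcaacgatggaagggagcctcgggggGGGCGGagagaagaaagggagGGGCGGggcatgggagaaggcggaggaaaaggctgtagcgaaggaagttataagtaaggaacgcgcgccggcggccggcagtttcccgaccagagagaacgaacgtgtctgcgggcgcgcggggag

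The KLF2 window held 6 GC boxes, the KLF13 window 3 and the KLF4 window 4. A GC box was found in 8 of the 13 windows, those of 7 genes, and in 45.0% of all 35116 windows. CACCC was found in 7 of the 13 windows, those of 4 genes, and in 59.9% of all windows. The MEF2 box, the site of the factors through which the MAP kinase ERK5 is known to induce KLF2 in endothelium, was found in 1 of the 13 windows and in 2.99% of all windows. Of the other motifs searched on both strands, CCAAT was found in 6 of the 13 windows, those of 5 genes, and in 34.6% of all windows. TGACGTCA was found in 1 of the 13 windows, of KLF11, and in 1.85% of all windows. For TATAAA it was 1 of the 13 and 11.5%, and for the CArG box 1 of the 13, of KLF7, and 1.29%. A match of this kind describes the letters only.

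The genes lie apart in the genome (GENCODE release 29 on GRCh38, all protein-coding). KLF2 is on chromosome 19 (16324817 to 16327874, plus strand), KLF4 on chromosome 9 (107484852 to 107490482, minus strand), KLF5 on chromosome 13 (73054976 to 73077542, plus strand) and KLF6 on chromosome 10 (3775996 to 3785281, minus strand). KLF3 is on chromosome 4 (38664196 to 38701042, plus strand), KLF7 on chromosome 2 (207074137 to 207167267, minus strand) and KLF11 also on chromosome 2 (10042849 to 10054836, plus strand). KLF9 is on chromosome 9 (70384597 to 70414624, minus strand), KLF10 on chromosome 8 (102648779 to 102655902, minus strand) and KLF13 on chromosome 15 (31326855 to 31435665, plus strand).

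The libraries held 19206661 and 19829158 counts with METTL14 and 20161082 and 19247784 counts in the controls. METTL14 itself had 405.4 ± 21.7 CPM (counts relative to the library size, scaled by TMM) with its plasmid and 27.6 ± 4.34 CPM in the controls (SD, n = 2 each), a log2 fold change of 3.88 (SE 0.141, edgeR adjusted p = 7.32e-05). Mitochondrial transcripts took 9.85 and 10.25% of counts with METTL14 and 5.99 and 6.26% in the controls, without overlap.

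Markers of the line itself and of other cell types also differed between the groups, where 27.0% of all tested genes were called higher and 28.1% lower. Of 10 colorectal epithelial markers, 10 reached 1 CPM with METTL14 and 9 in the controls, 3 were called higher and 3 lower, and their summed level was 9035 to 9252 CPM with METTL14 and 11846 to 18158 CPM in the controls. The lower ones were the keratins KRT8, KRT18 and KRT19, and the higher ones CDH17, CDH1 and CDX2. Of 10 endothelial markers 2 reached 1 CPM with METTL14 and 1 in the controls, ESAM and VWF were tested and not called (edgeR adjusted p = 0.067 and 0.0892), and the sum was 12.7 to 14.1 CPM with METTL14 and 8.83 to 10.4 CPM in the controls, with KDR, ERG and EMCN at 0 in every library. Of 11 leukocyte markers 4 reached 1 CPM with METTL14 and 3 in the controls, and the sum was 72.9 to 73.0 CPM with METTL14 and 32.6 to 35.9 CPM in the controls. Of the 4 tested, the macrophage markers CD68 (1314 and 1343 counts with METTL14, 361 and 338 in the controls) and CD14 were higher and CORO1A was lower, while CD3E, CD3D and MS4A1 were at 0 and the pan-leukocyte antigen PTPRC had at most 1 count in any library. Of 12 fibroblast markers 6 reached 1 CPM with METTL14 and 7 in the controls, and the sum was 1226 to 1337 CPM with METTL14 and 497 to 559 CPM in the controls. Of the 8 tested, 4 were higher (COL6A1, ACTA2, PDGFRB and COL1A1), while COL1A2, COL3A1, COL6A2 and DCN were not called. COL6A1 made up most of the sum (25332 and 24124 counts with METTL14, 10395 and 9263 in the controls), and COL1A2, COL3A1 and LUM had at most 64 counts in any library. KRT8 and KRT18 share exon bases with each other on opposite strands, as ACTA2 does with FAS, and CD68 and CORO1A do with genes that have no row. The part of these markers, and of the mitochondrial share, in the results on the Krüppel-like factors was not tested; with mitochondrial genes left out, 6 members were again higher and 2 lower. In bulk RNA a change in the RNA per cell cannot be told apart from a change in the number of cells that hold it.

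The comparison sets transcript levels under extra METTL14 against those under the control plasmid. With METTL14, 6 of the 10 Krüppel-like factors were higher (KLF4, KLF9, KLF13, KLF5, KLF3 and KLF11), 2 were lower (KLF2 and KLF10) and 2 were not called (KLF6 and KLF7) by edgeR's quasi-likelihood test at a Benjamini-Hochberg adjusted p of 0.05. The same test called 27.0% of all 12700 tested genes higher and 28.1% lower, or 55.1% in all. Of all tested genes 3569 were lower. Fewer were called lower without METTL14 replicate 1, where the spread comes from the controls alone, and the same members were called there. The median log2 fold change was 0.60 over the 10 members and -0.01 over all tested genes. For 8 members both METTL14 libraries lay on one side of both controls, 6 higher and 2 lower, against 79.8% of all tested genes (39.8% higher and 40.0% lower), so that share of the members is near the background. Past a change of 1.5-fold (edgeR's glmTreat), the calls were KLF4 and KLF13 as higher and KLF2 as lower, where the test called 11.1% of all genes higher and 10.7% lower.

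**Figure D1:**
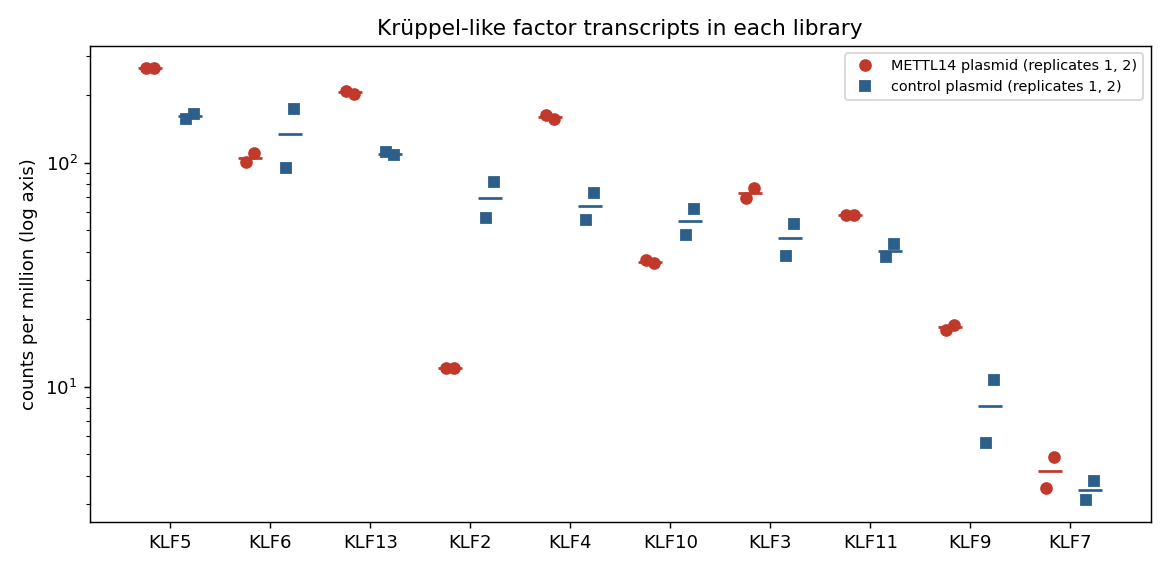
CPM (log axis) of each Krüppel-like factor in the 2 METTL14 libraries (circles) and the 2 control libraries (squares), with the group means as lines and genes ordered by their control mean. KLF2 sits at 12.1 and 12.2 CPM with METTL14, below both controls, and KLF4 at 163.6 and 156.0 CPM, above both.

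Among the members that often act as activators, KLF2, known as a quiescence and anti-inflammatory factor of endothelium and lymphocytes, showed the largest change of the 10. It had 236 and 246 counts with METTL14 and 1085 and 1594 counts in the controls, or 12.1 and 12.2 CPM with METTL14 and 56.4 and 81.8 CPM in the controls. The METTL14 libraries were close to each other and far below both controls, which themselves differed. KLF2 was 5.69-fold lower (log2 fold change -2.51, SE 0.191, edgeR adjusted p = 0.000127), the 269th largest change by size of the 12700 tested genes. The value lay between -2.75 and -2.22 when any 1 library was left out.

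KLF4, which restrains division in the gut epithelium, went the other way. It had 3184 and 3158 counts with METTL14 and 1064 and 1424 counts in the controls. At 163.6 and 156.0 CPM with METTL14 and 55.3 and 73.1 CPM in the controls, the groups did not overlap. It rose 2.49-fold (log2 fold change 1.32, SE 0.142, edgeR adjusted p = 0.000354). Scaled for transcript length (TPM, the length-scaled form of CPM), KLF4 stood at 9.68 and 9.21 times the level of KLF2 in the METTL14 libraries and at 0.703 and 0.641 times that level in the controls. The order of the 2 genes was thus opposite in the 2 groups.

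KLF5, a growth-promoting factor of crypt cells, rose as well. It had 5149 and 5370 counts with METTL14 and 3003 and 3224 counts in the controls, which is 264.5 and 265.3 CPM with METTL14 and 156.2 and 165.5 CPM in the controls. Replicates differed little in either group, and the change was 1.65-fold (log2 fold change 0.72, SE 0.0952, edgeR adjusted p = 0.000767). KLF4 and KLF5 are often set against each other in the gut, and in these cells the transcripts of both were higher with METTL14.

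KLF6, a growth inhibitor of epithelial cells, had 1952 and 2229 counts with METTL14 and 1815 and 3374 counts in the controls. At 100.3 and 110.1 CPM the METTL14 libraries lay between the controls at 94.4 and 173.2 CPM. No change was called (log2 fold change -0.35, SE 0.252, edgeR adjusted p = 0.28). KLF6 was at -0.72 without control replicate 1 and at 0.15 without control replicate 2, so its sign turned with the control left out. With a single control left, the spread in the fit comes from the METTL14 libraries alone, so no call is drawn there. KLF7, known from developing neurons, was the least abundant member, with 69 and 98 counts with METTL14 and 60 and 74 in the controls. Its groups overlapped, and no change was called at this depth (0.28, SE 0.269, edgeR adjusted p = 0.41). Its value was 0.49 without METTL14 replicate 1, 0.035 without METTL14 replicate 2, 0.15 without control replicate 1 and 0.42 without control replicate 2.

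The spread of the controls touched more members than KLF6. Control replicate 2 was above control replicate 1 for 9 of the 10 members, KLF13 being the exception, and for 50.8% of all tested genes. The ratio of the controls was 1.83 for KLF6 and 1.83 for KLF9, 1.45 for KLF2, 1.39 for KLF3, 1.32 for KLF4 and 1.30 for KLF10. Over the 10 members the median size of the log2 ratio between the controls was 0.39, against 0.20 over all tested genes. Between the METTL14 libraries it was 0.06 for the members and 0.09 for all tested genes. EGR1, a growth factor-induced gene named after its values were seen, had 1384 and 1308 counts with METTL14 and 504 and 6626 counts in the controls. It was not called (log2 fold change -1.43, SE 1.40, edgeR adjusted p = 0.459), and its value was 1.37 without control replicate 2 and -2.32 without control replicate 1. Whether what raised EGR1 in that library also raised the members was not tested.

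**Figure D2:**
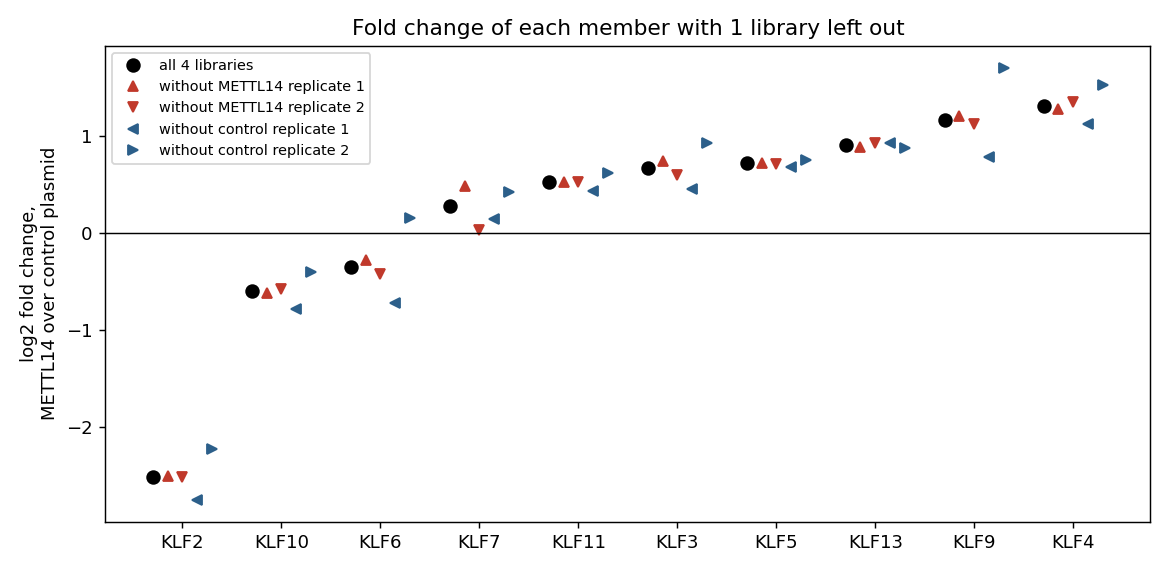
Log2 fold change of each member, METTL14 over control, with all 4 libraries (black) and with 1 library left out (triangles). KLF6 lies at -0.72 without control replicate 1 and at 0.15 without control replicate 2, while KLF2 stays between -2.75 and -2.22.

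Among the members that bind SIN3A, 3 were higher and 1 was lower, where 27.0% of all tested genes were called higher and 28.1% lower. KLF13, a regulator of chemokine transcription in lymphocytes, had 4064 and 4103 counts with METTL14 and 2141 and 2100 in the controls, or 208.8 and 202.7 CPM with METTL14 and 111.4 and 107.8 CPM in the controls. Its controls were the closest of any member, and it rose 1.88-fold (log2 fold change 0.91, SE 0.0948, edgeR adjusted p = 0.000316). Its size depends on the correction for transcript length and GC content: corrected for that trend over all genes it was 0.39 (adjusted p = 0.0121). KLF9, a target of glucocorticoid and thyroid hormone signalling, had 348 and 383 counts with METTL14 and 108 and 209 counts in the controls. Both METTL14 libraries lay above both controls, at 17.9 and 18.9 CPM with METTL14 against 5.62 and 10.7 CPM in the controls, and KLF9 rose 2.25-fold (1.17, SE 0.271, edgeR adjusted p = 0.00864). The rise was 0.78 without control replicate 1 and 1.71 without control replicate 2.

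KLF10 and KLF11, both TGF-beta-inducible and 77.6% identical over the zinc finger bases, moved apart. KLF10 had 713 and 718 counts with METTL14 and 911 and 1205 in the controls, at 36.6 and 35.5 CPM with METTL14 and 47.4 and 61.8 CPM in the controls. It was lower by 1.51-fold (log2 fold change -0.60, SE 0.145, edgeR adjusted p = 0.0105), with -0.78 without control replicate 1 and -0.40 without control replicate 2. KLF11 had 1133 and 1181 counts with METTL14 and 727 and 841 in the controls, at 58.2 and 58.3 CPM with METTL14 and 37.8 and 43.2 CPM in the controls. It rose 1.44-fold (0.53, SE 0.113, edgeR adjusted p = 0.00631), with the opposite-strand gene named above sharing its exon bases. For both genes the groups did not overlap, and neither change passed the test against 1.5-fold.

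KLF3, the CtBP-binding repressor, had 1359 and 1557 counts with METTL14 and 738 and 1041 in the controls, at 69.8 and 76.9 CPM with METTL14 and 38.4 and 53.4 CPM in the controls. The groups did not overlap, and KLF3 rose 1.60-fold (log2 fold change 0.68, SE 0.162, edgeR adjusted p = 0.00997). The value was 0.46 without control replicate 1 and 0.93 without control replicate 2.

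**Figure D3:**
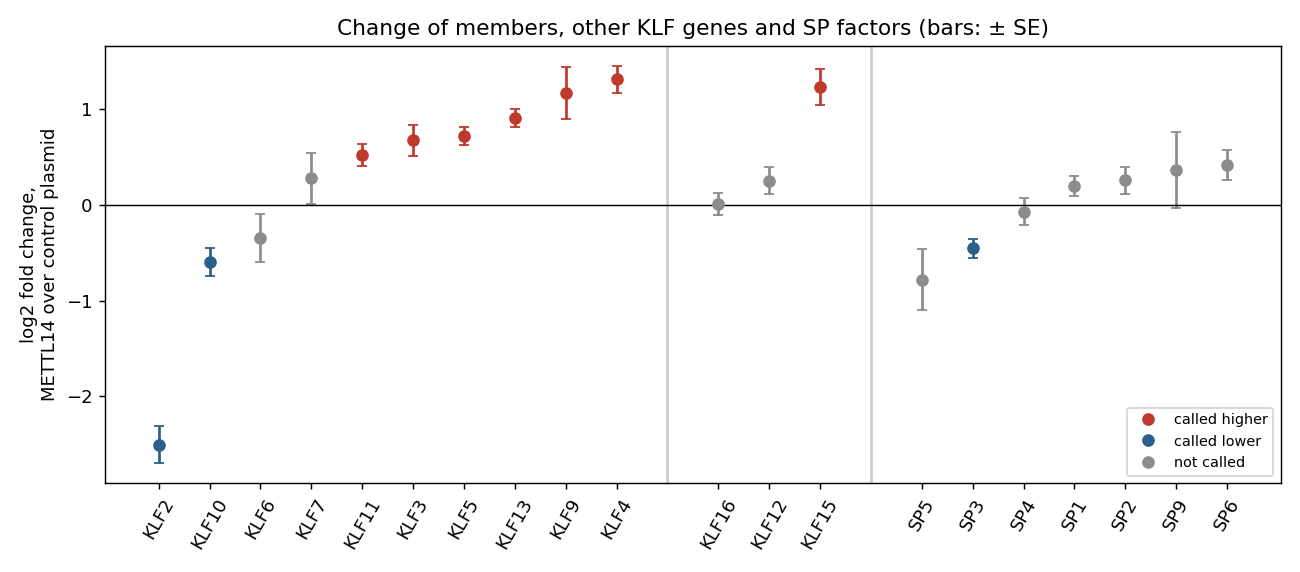
Log2 fold change, METTL14 over control (points, bars ± SE), of the 10 members, the other tested KLF genes and the tested SP factors, coloured by the call of edgeR's test. KLF2 at -2.51 and KLF4 at 1.32 are the ends of the range, and of the 7 SP factors SP3 alone is called.

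Per transcript length, KLF5 was the most abundant member in both groups, at 172.5 ± 0.185 TPM with METTL14 and 97.3 ± 6.85 TPM in the controls (SD, n = 2 each). With METTL14 the order went on with KLF4 (131.9 ± 4.54 TPM), KLF13 (70.0 ± 1.53 TPM) and KLF6 (52.5 ± 3.42 TPM). KLF11 and KLF3 followed at 33.6 ± 0.0233 and 33.3 ± 2.24 TPM, which differ by less than their spread, then KLF10 (27.0 ± 0.641 TPM), KLF2 (14.0 ± 0.00976 TPM), KLF9 (8.26 ± 0.323 TPM) and KLF7 (1.16 ± 0.254 TPM). In the controls KLF2 (74.1 ± 21.4 TPM), KLF6 (62.3 ± 27.6 TPM) and KLF4 (49.3 ± 11.1 TPM) came after KLF5. Within each control library KLF2 was above KLF6, KLF6 above KLF4 and KLF4 above KLF10 (38.1 ± 8.24 TPM). KLF11 (21.7 ± 2.67 TPM) was likewise above KLF3 (19.4 ± 5.05 TPM) in each control. The ranges of these neighbours over the controls overlapped all the same. KLF10 and KLF13 (34.6 ± 0.226 TPM) changed order between the controls. KLF9 (3.43 ± 1.61 TPM) and KLF7 (0.894 ± 0.15 TPM) were again the lowest.

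The summed level of the 10 members was 544 and 544 TPM in the METTL14 libraries and 341 and 461 TPM in the controls. KLF2 made up 2.56 and 2.57% of that sum with METTL14 and 17.3 and 19.3% in the controls. KLF4 made up 24.8 and 23.7% with METTL14 and 12.2 and 12.4% in the controls. The share of KLF5 was 31.7 and 31.7% with METTL14 and 27.1 and 22.1% in the controls, and that of KLF10 5.05 and 4.89% with METTL14 and 9.46 and 9.53% in the controls. These shares depend on the single transcript length used for each gene.

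**Figure D4:**
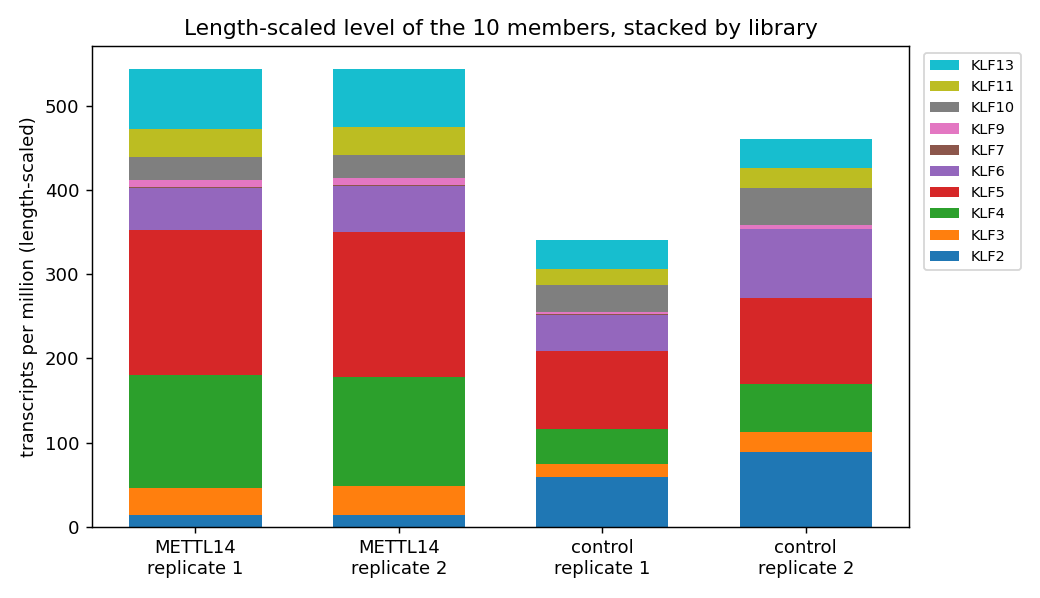
Length-scaled levels (TPM) of the 10 members, stacked for each library. The METTL14 libraries sum to 544 and 544 and the controls to 341 and 461, and the KLF2 segment takes 2.56 and 2.57% of the sum with METTL14 against 17.3 and 19.3% in the controls.

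The representative transcripts of the members were 2018 (KLF2) to 8362 (KLF7) bases long, with a median of 4343 against 3126 for all tested genes. Their GC content ran from 41.5% in KLF3 to 65.2% in KLF2, with a median of 46.7% against 50.1% for all tested genes. The AU-rich pentamer ATTTA, a mark of unstable mRNAs, occurred in the 3' UTR of all 10 members, at a median of 2.37 per kilobase against 1.5 for all tested genes. That member median lay within the quartiles of all tested genes (0 to 3.08). The 3' UTRs of the members were also longer, with a median of 2754 bases against 1068, which leaves more room for a copy. KLF2 had the highest density, with 3 copies in 843 bases (3.56 per kilobase), and KLF13 the lowest at 0.893. The pentamer GGACT, a frequent form of the methylation site, occurred 0 times in KLF10 and 2 (KLF5) to 12 (KLF7) times in the others, at a median of 1.19 per kilobase of transcript against 0.955 for all tested genes. The density was 1.49 in KLF2 (3 copies) and 1.42 in KLF4 (4 copies). Methylation itself was not measured in these libraries, and no relation between these densities and the changes was tested.

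Of the 8 other KLF genes, 3 passed the filter. KLF15, a metabolic regulator that glucocorticoids induce, had 548 and 568 counts with METTL14 and 186 and 276 in the controls and rose (log2 fold change 1.24, SE 0.185, edgeR adjusted p = 0.00131). KLF12 (0.25, adjusted p = 0.164) and KLF16 (0.01, adjusted p = 0.936) were not called. KLF12 was at 0.13 without control replicate 1 and 0.39 without control replicate 2. After the length and GC correction KLF16 was called lower (-0.37, adjusted p = 0.0286). KLF1, KLF8, KLF14, KLF17 and KLF18 had at most 4 counts in any library. Of the 9 SP factors 7 were tested, with a median of 0.20 against -0.01 for all tested genes. SP3 was the 1 called, lower (-0.45, SE 0.103, edgeR adjusted p = 0.00784). Its call was lost after the length and GC correction (-0.27). It was also lost without either METTL14 library, where the value held (-0.46 and -0.45) but the spread comes from the controls alone. SP1 (0.20), SP2 (0.26), SP4 (-0.07), SP5 (-0.78), SP6 (0.42) and SP9 (0.37) were not called, and SP7 and SP8 had at most 6 counts in any library. SP5 was called lower with a replicate block (-0.75, adjusted p = 0.0175) and after the length and GC correction (-0.99, adjusted p = 0.0351), and was at -0.33 without control replicate 1 and -1.13 without control replicate 2. SP6 was called higher with size factors from DESeq2 (adjusted p = 0.0475) and with the filter of 5 CPM (adjusted p = 0.0446). Without control replicate 2 the values were 0.29 (SP1), 0.27 (SP2), 0.47 (SP6) and -0.37 (SP3). Without control replicate 1 they were 0.11 (SP1), 0.25 (SP2), 0.38 (SP6) and -0.53 (SP3).

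Of 14 tested corepressors and coactivators that Krüppel-like factors use, 5 were higher and 3 lower, with a median of 0.18, close to the background shares. SAP30, a SIN3A complex subunit, fell (log2 fold change -1.51, SE 0.16, edgeR adjusted p = 0.000329), as did the histone deacetylases HDAC1 (-0.52) and HDAC2 (-0.55). The acetyltransferase EP300 was higher (0.43). Without either METTL14 library, where the spread comes from the controls alone, the calls of HDAC1, HDAC2 and EP300 were lost. Over the 16 alternatives HDAC1 ranged from -0.56 to -0.45 and HDAC2 from -0.66 to -0.39. After the length and GC correction EP300 was at 0.048 and not called, and the list had 2 higher genes. Fewer of these partner genes were called without either METTL14 library. Of 17 tested ubiquitin ligases and deubiquitinases reported to act on these proteins 8 were higher and 2 lower, with a median of 0.22. The shares over all tested genes were 27.0% higher and 28.1% lower. FBXO32, a ligase of muscle atrophy, rose (1.99, SE 0.173, edgeR adjusted p = 0.000183), VHL (0.55) and SMURF1 (0.71) as well, and WWP2 was lower (-0.75). SMURF1 shares exon sequence with TRRAP on the other strand. Fewer genes of this list were called higher without either METTL14 library, again with the spread of the controls alone.

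Of 19 tested genes that induce members of the family, 6 were higher and 4 lower, with a median of 0.18. Over all tested genes 27.0% were higher and 28.1% lower. MAP2K5, the kinase that activates ERK5 upstream of KLF2, rose (34.8 ± 1.00 CPM with METTL14 and 20.4 ± 0.244 CPM in the controls, SD, n = 2 each; log2 fold change 0.77, SE 0.113, edgeR adjusted p = 0.00119). FOXO3 was higher too (0.87, adjusted p = 0.00221), and so was SMAD3, which carries TGF-beta signals (0.53), a call lost after the length and GC correction. Called lower among the genes of the ERK5 and serum response routes, and named after their values were seen, were MEF2C (-0.40, adjusted p = 0.0484) and SRF (-0.58, adjusted p = 0.0129). MAPK7, which is ERK5 itself (0.33), MEF2A (-0.11) and MEF2D (-0.14), named in the same way, were not called. Fewer of the inducers were called without either METTL14 library, where the spread comes from the controls alone. The lower calls also depended on the method with all libraries kept. With DESeq2, and with library totals in place of TMM, 2 inducers were called lower. With size factors from DESeq2, the filter of 5 CPM, mitochondrial genes left out, or the length and GC correction, 3 were. MEF2C lay close to the threshold.

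Counts of reported targets of the members stand beside all tested genes, of which 27.0% were called higher and 28.1% lower. Of 13 tested targets of KLF4 and KLF6, 7 were higher and 3 lower, with a median of 0.55. LAMA3, a laminin chain, was at 134.0 ± 9.22 CPM with METTL14 and 50.4 ± 2.71 CPM in the controls (SD, n = 2 each; log2 fold change 1.41, SE 0.106, edgeR adjusted p = 0.000123). CDH1, E-cadherin, was higher (0.74), as was TGFB1 (1.03), which shares exon bases with HNRNPUL1 on the other strand. ODC1, ornithine decarboxylase, was lower (-1.76, SE 0.141, edgeR adjusted p = 0.000148). Of 14 tested targets of KLF5, 4 were higher and 5 lower, with a median of 0.13: PDGFA was higher (1.95, SE 0.22), while CCNB1 (-1.96, SE 0.0976), CDK1 (-1.28, SE 0.0945) and the stem cell receptor LGR5 (-2.24, SE 0.194) were lower, each at an edgeR adjusted p of at most 0.000416. More KLF5 targets were called higher without either control library, where the spread comes from the METTL14 libraries alone.

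Of 15 tested targets of KLF9, KLF10, KLF11 and KLF13, 3 were higher and 4 lower, with a median of -0.17. The shares of all tested genes were again 27.0% and 28.1%. CYP1A1, which KLF9 is reported to regulate, rose (log2 fold change 2.24, SE 0.149, edgeR adjusted p = 9.5e-05). CCL5, a target of KLF13, was higher (0.87, between 0.70 and 1.03 over the alternatives). Its call was lost without METTL14 replicate 2, where the spread comes from the controls alone. PRDX3, a mitochondrial peroxidase and 1 of the 4 lower genes, was at -0.42. Its call was lost after the length and GC correction (0.0019). It was also lost without either METTL14 library, where the value held (-0.40 and -0.44) but the spread comes from the controls alone. Fewer of these targets were called without either METTL14 library and more without either control library, fits whose spread comes from the other group alone. Of the 12 reported targets of KLF2 and KLF3 only 3 passed the filter. LGALS3, galectin 3, was lower (-0.49, between -0.53 and -0.34 over the alternatives), and NOS3 (0.08) was not called. The call of LGALS3 was lost without either METTL14 library, where the spread comes from the controls alone. The endothelial KLF2 targets THBD and S1PR1 had at most 4 counts in any library. Exon bases are shared with an opposite-strand gene by NOS3 (ATG9B), MEF2A (LYSMD4) and MAPK7 (B9D1 and MFAP4), whose partners have rows, and by CDH1, EP300, HDAC2, LGR5, MEF2C, SMAD3, KLF16 and SP9, whose partners have none.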

How the data were processed

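The authors deposited 1 table of expected counts per gene for each of the 4 libraries, not normalized. The build hg18 and the tools RSEM, StringTie, HISAT2, Bowtie2 and fastp are listed, without versions, per the submitters' processing notes. Of the 20323 gene identifiers 20171 are in GENCODE release 29 (GRCh38), so the build behind the counts is unclear, and positions, lengths and coding bases printed here are those of GENCODE. The 102 rows with no symbol took at most 0.0366% of counts. Expected counts were rounded.

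Differences were tested with edgeR 4.0.16 under R 4.3.3: filterByExpr (minimum count 10), TMM, a quasi-likelihood fit with the robust option and no other term, and Benjamini-Hochberg adjustment over 12700 genes at 0.05. The SE is the log2 fold change, without sign, over the root of F. With 2 libraries a group the smallest exact permutation p is 0.333, so p-values rest on the spread modelled over genes. No label ties libraries to separate cultures, so that spread may be technical. Replicates differed by more than sampling noise (chi-square per degree of freedom 3.34 with METTL14, 29.8 in the controls). A fit with 1 library left out takes its replicate spread from the other group alone, so its calls depend on that group's spread. TPM divides counts by the length of 1 transcript per gene, preferring basic, coding, principal, then long ones. Ratios between replicates added 0.5 CPM. The test was tried on simulated counts.

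The members and gene lists were chosen with earlier results of these data known, so a list gets counts and a median and no test. Named are all members, METTL14, the other KLF and SP genes and up to 4 genes a list by smallest p. Genes outside that rule are marked as such in the text, or are cell type markers or list genes near 0. A few genes picked by it are left unreported. The 16 alternatives were DESeq2 1.42.0, size factors from DESeq2, library totals, limma-voom (limma 3.58.1), no low-count filter, 5 CPM in 2 libraries, the plain in place of the robust fit, a replicate block, glmTreat at 1.5-fold, each library left out, mitochondrial genes left out, a loess correction for length and GC content (12653 genes), and rows summed by symbol. Python 3.11.15 and matplotlib 3.10.9 drew the figures.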

Additional observations from a re-analysis of the deposited data

How the results depend on the processing

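The calls of KLF2, KLF4 and KLF13 held under every alternative that kept all 4 libraries. Those of KLF3, KLF5, KLF9, KLF10 and KLF11 held there under all but the test against 1.5-fold. Summing rows by symbol could not change the counts of the members, since each has a single row. Fits with 1 library left out are not counted here, as their spread comes from the other group alone. Over all 16 alternatives KLF2 ranged from -2.75 to -2.22, KLF4 from 1.13 to 1.53 and KLF13 from 0.39 to 0.96. Against 1.5-fold the counts were 1416 genes higher and 1357 lower, 2 members higher and 1 lower, and 9 and 9 genes of the gene lists, fewer because that test asks for a larger change. With 1 library left out, 2306 to 4450 genes were higher and 2305 to 4575 lower, 6 members were higher and 2 to 3 lower, and 20 to 50 list genes were higher (34 with all libraries) and 11 to 28 lower (22 with all libraries).

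KLF6 ranged from -0.72 to 0.15 and EGR1 from -2.32 to 1.37 over the same fits. Near zero, KLF16 ranged from -0.037 to 0.064 and NOS3 from -0.065 to 0.235 there, and after the length and GC correction the values were -0.37 (KLF16), 0.16 (SP4), -0.36 (NOS3) and 0.0019 (PRDX3). The cause was not tested. With replicate number as a term (replicate block) 3793 genes were higher and 3903 lower, and 6 members were higher and 2 lower. Libraries with the same number deviated together weakly (correlation 0.0834 over genes). With 2 libraries a group this value cannot decide whether they are paired. No label says what the numbers mark, so the numbers were not taken to pair libraries.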
